A study of Mus musculus with 6 samples.

Results

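The 58 genes named for protein tyrosine phosphatase families were followed through wild type and Ezh2 KO helper T cells: the receptor-type (Ptpr), non-receptor (Ptpn) and dual-specificity (Dusp) families. They were chosen by symbol alone, as every gene named Ptpn, Ptpr or Dusp followed by a digit or letter, without Ptprcap, and make up 58 of the 18193 genes with a probe set of their own on the array. A probe set is the group of short oligonucleotides that reports 1 transcript, and the brightest probe set of each gene stood for it, out of 128 that carry these symbols. RNA came from 6 cultures, 1 array each, which crossed 2 genotypes with 3 culture conditions, so no group has a replicate. Naive CD4 T cells (CD44 low, CD62L high) from spleens of C57BL/6 mice, labelled wild type or Ezh2 KO, were stimulated for 2 days on plates coated with an anti-TCRβ antibody (10 µg/ml), with anti-CD28 (1 µg/ml) and IL-2 (15 ng/ml) added. They then stayed for 3 more days in the same medium without those antibodies. The unpolarized cultures of both genotypes held blocking antibodies to IL-4 and to interferon gamma, the Th1 cultures 1 ng/ml IL-12 with the antibody to IL-4, and the Th2 cultures 10 ng/ml IL-4 with the antibody to interferon gamma. How Ezh2 was deleted, the promoter of any Cre, the age of the mice and whether animals were pooled are not given in the sources used here.

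Active protein tyrosine phosphatases remove phosphate from tyrosine and so oppose the kinases that relay signals from the T cell receptor and from cytokine receptors. A symbol alone does not show that the product of a gene is an active phosphatase of tyrosine. The receptor-type and non-receptor enzymes act on kinases and adaptors near the membrane, with CD45 (Ptprc) keeping Lck ready to fire and SHP-1 (Ptpn6) and PEP (Ptpn22) damping the signal. The MAP kinase phosphatases among the Dusp genes remove phosphate from both threonine and tyrosine of ERK, p38 and JNK, and several are themselves induced by ERK and act as feedback brakes. Ezh2 is the usual methyltransferase of the Polycomb complex PRC2, which methylates lysine 27 of histone H3 at silent genes.

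Values are intensities on a linear scale, with the same trimmed mean on each array (500.003). A floor was set at an intensity of 11.3 (the 20th percentile of all values), and a gene was tested only if it reached 64.4, the median of all values, on at least 1 array. Differences are on the log2 scale, Ezh2 KO minus wild type, averaged over the 3 pairs of arrays and given ± SD (n = 3). The p-values come from limma with culture as a block, adjusted by Benjamini-Hochberg over all 11572 tested genes, and cover no more than the scatter of these 6 arrays, as nothing in the labels ties them to separate mice. A level of a bulk culture cannot tell fewer cells that express a gene from less RNA per cell. The Ezh2 probe set itself read 7002, 6553 and 7677 (wild type) against 4971, 4876 and 4946 (Ezh2 KO), each in the order unpolarized, Th1 and Th2. It was lower without overlap (-0.52 ± 0.11, limma adjusted p = 0.0437), and which part of the gene was deleted is not given, so it checks the labels only weakly. The CD4 T cell markers Cd3d, Cd3e, Cd3g, Cd4, Cd5, Cd28, Cd2 and Thy1 were all above 64.4 on every array, with a summed intensity of 73709 to 79739 in wild type and 71225 to 80631 in Ezh2 KO, and 1 of them, Cd2, fell (-0.64 ± 0.13).

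Of the 58 genes, 39 had enough signal to be tested, and 13 of these changed with genotype: 10 rose in Ezh2 KO and 3 fell. Over all tested genes 16.3% passed the same test, 8.35% as higher and 7.98% as lower. The rises were Ptpn5, Ptpn13, Ptpn3, Ptpn12 and Ptpn14 among the non-receptor enzymes, Ptprj among the receptors, Dusp5, Dusp6 and Dusp16 among the MAP kinase phosphatases, and Dusp3 among the atypical dual-specificity enzymes. Ptpn1, Ptpn6 and Ptprs fell. By share, 25.6% of the tested phosphatase genes rose and 7.69% fell. Called changes of 2-fold or more were seen in 7 of the 39 tested genes (17.9%), against 6.57% of all tested genes. The median difference was 0.15 over the 39 genes and -0.07 over all tested genes. A gene that reaches the limit only in the genotype where it is high has to differ, which holds here for Ptpn5. With arrays centred on their medians the split was 9 higher and 1 lower (over all genes 864 and 411, against 966 and 924), and Ptpn1, Ptpn6 and Ptpn14 lost their calls. With any 1 culture left out, or with no filter on dim genes, limma called 0 phosphatase genes and 0 genes of the whole array, where 2952 to 3227 and 4711 genes had an unadjusted p under 0.05.

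**Figure D1:**
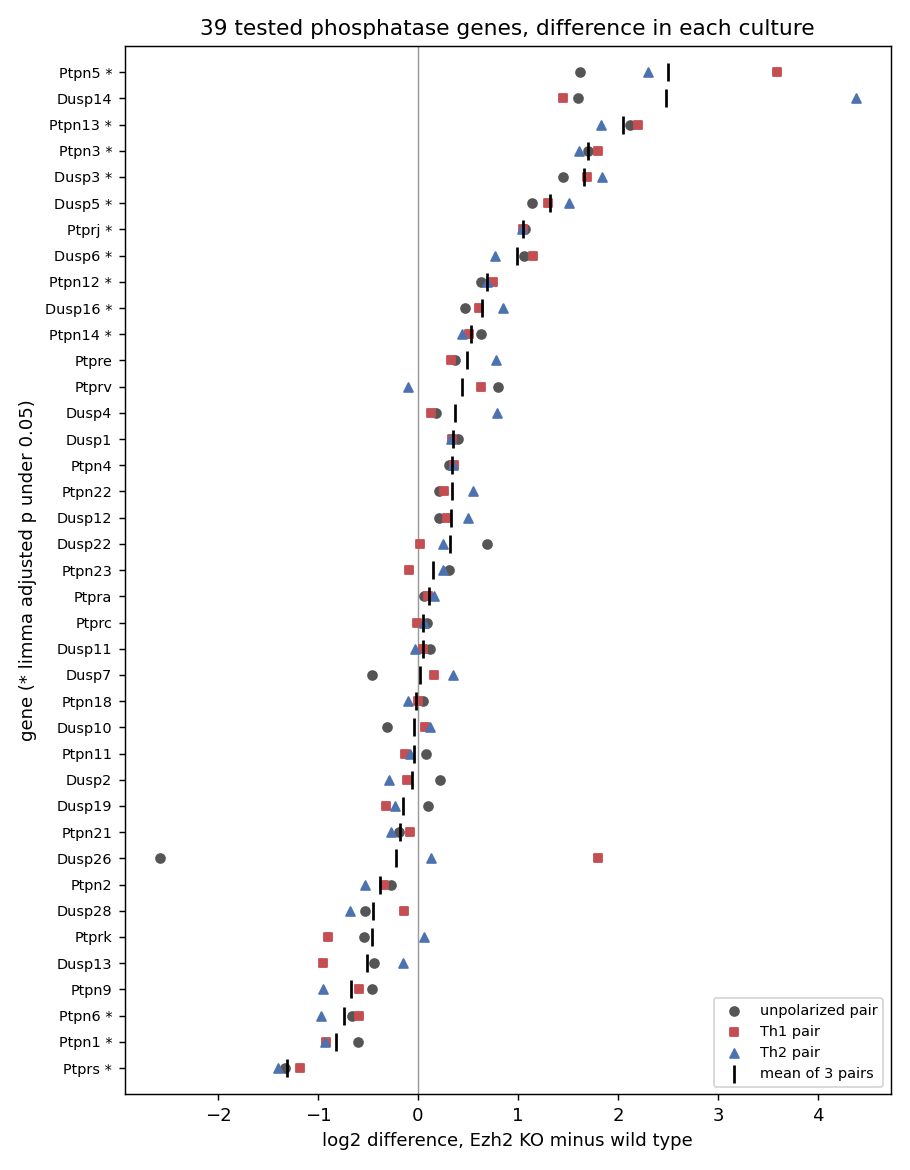
Each row is 1 of the 39 tested phosphatase genes and each symbol the log2 difference, Ezh2 KO minus wild type, in 1 culture, with a bar at the mean of the 3. The 13 genes with an asterisk have all 3 symbols on the same side of 0, and Dusp14 and Dusp26 spread most widely among cultures.

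The arrays of the genotypes were also compared without a model. In 15 of the 39 genes every Ezh2 KO array was above every wild type array, and in 6 every one was below, which is 38.5% and 15.4%, against 20.1% and 27.5% of all tested genes. Among the 15 are 9 of the 10 genes that rose, and among the 6 all 3 that fell. Both comparisons use the same arrays, so this overlap is not separate support for the calls. Ptpn5, among the 15, was tested through its Ezh2 KO arrays alone. Ptpn14 is the called gene whose groups overlap, with a wild type Th1 reading above those of the unpolarized and Th2 Ezh2 KO arrays.

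The non-receptor class held the largest rises. Ptpn13, a very large phosphatase with a FERM domain and several PDZ domains that is known to bind the tail of Fas, read 91.5, 88.1 and 179 (wild type) against 399, 406 and 636 (Ezh2 KO), in the same culture order as all values given as 3. The Th2 culture was the brightest in each genotype, and all Ezh2 KO arrays lay above all wild type arrays. The difference was 2.05 ± 0.20, 4.14-fold (limma adjusted p = 0.0177). Its second probe set was under the limit on all arrays, and with the mean of both the difference was 1.02 and still passed. Ptpn3, which joins a FERM and a PDZ domain to its catalytic domain and has been linked to the zeta chain of the T cell receptor, read 149, 164 and 218 (wild type) against 483, 573 and 663 (Ezh2 KO). The 3 pairs gave nearly the same rise, 1.70 ± 0.10 or 3.25-fold (limma adjusted p = 0.0175). Ptpn14, another FERM domain enzyme, read 129, 206 and 144 (wild type) against 200.03, 293 and 196 (Ezh2 KO). That is 0.53 ± 0.10, 1.44-fold (limma adjusted p = 0.0413), a small rise in each pair beside Th1 readings that were the highest in both genotypes. A second probe set of Ptpn14 with readings above the limit gave -0.00129 ± 0.39, with both signs. The other FERM domain members, Ptpn4 and Ptpn21, gave 0.34 ± 0.03 and -0.18 ± 0.09 and did not pass (limma adjusted p = 0.0648 and 0.219). So 3 of 5 genes of this structural type rose, where 8.35% of all tested genes did. The grouping was made after their values were seen, so the count is a description only.

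Ptpn12 and Ptpn5 complete the non-receptor rises. Ptpn12 encodes PTP-PEST, which acts on adhesion and cytoskeletal proteins, and read 1296, 1386 and 1210.0 (wild type) against 2011, 2329 and 1952 (Ezh2 KO). Every Ezh2 KO culture was brighter than every wild type one, by 0.69 ± 0.06 or 1.61-fold (limma adjusted p = 0.0289). Its 3 other probe sets above the limit gave 0.87 ± 0.21, 0.69 ± 0.42 and 0.66 ± 0.20, each higher in all 3 cultures. Ptpn5 encodes STEP, a phosphatase best known from neurons of the striatum. It read 23.8, 9.96 and 24.9 (wild type) against 73.0, 136 and 123 (Ezh2 KO), so all wild type readings were under the low-signal limit and that of the Th1 culture was under the floor. The size of the difference depended on the floor. It was 2.50 ± 1.00 with the floor used (limma adjusted p = 0.0442) and 1.52 with the floor at the 40th percentile, and without a floor the call was lost (limma adjusted p = 0.0517). Its 2 other probe sets stayed under the limit on all 6 arrays.

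Ptpn1 and Ptpn6, a pair of enzymes that restrain cytokine and antigen receptor signals, fell. Ptpn1 encodes PTP1B, which is anchored to the endoplasmic reticulum and dephosphorylates the insulin receptor and Janus kinases. It read 8077, 8982 and 8429.9 (wild type) against 5332, 4759 and 4426 (Ezh2 KO). All Ezh2 KO cultures were below all wild type cultures, by -0.81 ± 0.19 or 1.76-fold lower (limma adjusted p = 0.0334). A second bright probe set agreed in sign in each culture, with 3742, 3425 and 3799 (wild type) against 2167, 1919.7 and 1637 (Ezh2 KO). Ptpn6 encodes SHP-1, which docks on inhibitory receptors through its SH2 domains. Its probe set read 5512, 4733 and 5884 (wild type) against 3502, 3137 and 3013 (Ezh2 KO). This is -0.74 ± 0.20, 1.67-fold lower, without overlap (limma adjusted p = 0.0387), and a second, dimmer probe set gave -0.35 ± 0.27 with all 3 differences below 0. Both calls were lost when arrays were centred on their medians (limma adjusted p = 0.0545 for Ptpn1 and 0.0582 for Ptpn6).

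The best known regulators of T cell activation among the other non-receptor enzymes did not pass in the main fit. Ptpn2 did pass with a stricter filter on dim genes, and both Ptpn2 and Ptpn22 with an intensity trend in limma. Ptpn2 encodes TC-PTP, which dephosphorylates Janus kinases and STAT factors and is the closest relative of Ptpn1. It read 9633, 10035 and 10991 (wild type) against 8005, 7924 and 7605 (Ezh2 KO), lower without overlap by -0.38 ± 0.14, short of the threshold (limma adjusted p = 0.0779). Its second bright probe set gave -0.37 ± 0.16, also lower in each culture, while a dim one gave 0.28 ± 0.14. Ptpn22, whose product PEP partners with Csk to restrain Lck and Zap70, read 2738, 2926 and 2184 (wild type) against 3159, 3495 and 3186 (Ezh2 KO). Here each Ezh2 KO array was above each wild type array, at 0.34 ± 0.18 (limma adjusted p = 0.116). Ptpn11, which encodes SHP-2, a phosphatase that promotes signalling to ERK, read 2343, 2228 and 2282 (wild type) against 2479, 2038 and 2164 (Ezh2 KO), with groups that overlap and a difference of -0.04 ± 0.11 (limma adjusted p = 0.761). Ptpn9, known for a role in secretory vesicle fusion, was the nearest miss of the class, with 2594, 2345 and 2659 (wild type) against 1886, 1554 and 1373 (Ezh2 KO) and -0.67 ± 0.26 (limma adjusted p = 0.0531). Ptpn18 and Ptpn23 had differences of both signs, at -0.02 ± 0.07 and 0.15 ± 0.22. A second, much dimmer Ptpn18 probe set was lower in each culture, at -0.61 ± 0.17. Ptpn7, the phosphatase of blood cells also called HePTP, was not analysed here.

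Among the 7 tested receptors the 2 called genes moved in opposite directions, where 8.35% of all tested genes rose and 7.98% fell. Ptprj encodes CD148, a receptor with a large fibronectin-type ectodomain that can both activate and inhibit Src family kinases. It read 108, 119.6 and 116 (wild type) against 226, 248 and 239 (Ezh2 KO). The 3 pairs were almost equal, at 1.05 ± 0.01 or 2.08-fold (limma adjusted p = 0.02), and the groups were well apart. A second Ptprj probe set near the limit gave 0.76 ± 0.74 and was lower in the unpolarized pair. With the mean of all 4 Ptprj probe sets the gene was under the limit and not tested. Ptprs encodes PTP sigma, a receptor of the LAR family that binds heparan and chondroitin sulfate proteoglycans and is best known from neurons. It read 1946, 1533 and 1854 (wild type) against 772, 675 and 703 (Ezh2 KO), and every Ezh2 KO culture was more than 2-fold below its wild type partner. Its difference of -1.31 ± 0.11, 2.47-fold lower (limma adjusted p = 0.02), was the largest fall of the 39 genes. The other Ptprs probe set above the limit was dim and mixed, at -0.24 ± 0.73, and with the mean of all 4 probe sets the call was lost (-0.30, limma adjusted p = 0.376).

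Ptprc, the gene of CD45 and the most abundant receptor phosphatase of lymphocytes, did not pass. Its probe set read 25896, 26377 and 25280.4 (wild type) against 27485, 26161 and 26429 (Ezh2 KO). The groups overlapped, with a difference of 0.05 ± 0.05 (limma adjusted p = 0.7). Ptpra, which activates Src family kinases, gave 0.11 ± 0.05 and also did not pass (limma adjusted p = 0.386). A second, much dimmer Ptpra probe set with readings above the limit gave -1.30 ± 1.17, lower in each culture. Ptpre, a close relative of Ptpra, read 765, 814 and 784 (wild type) against 989, 1021 and 1346 (Ezh2 KO), higher without overlap but not called at 0.49 ± 0.25 (limma adjusted p = 0.0846). Its second probe set showed a larger separation, with 283, 243 and 357 (wild type) against 577, 651 and 1045 (Ezh2 KO), or 1.33 ± 0.27. With the mean of both probe sets Ptpre was among the called genes. Ptprk, an adhesion receptor, and Ptprv gave -0.46 ± 0.48 and 0.44 ± 0.48 and did not pass.

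**Figure D2:**
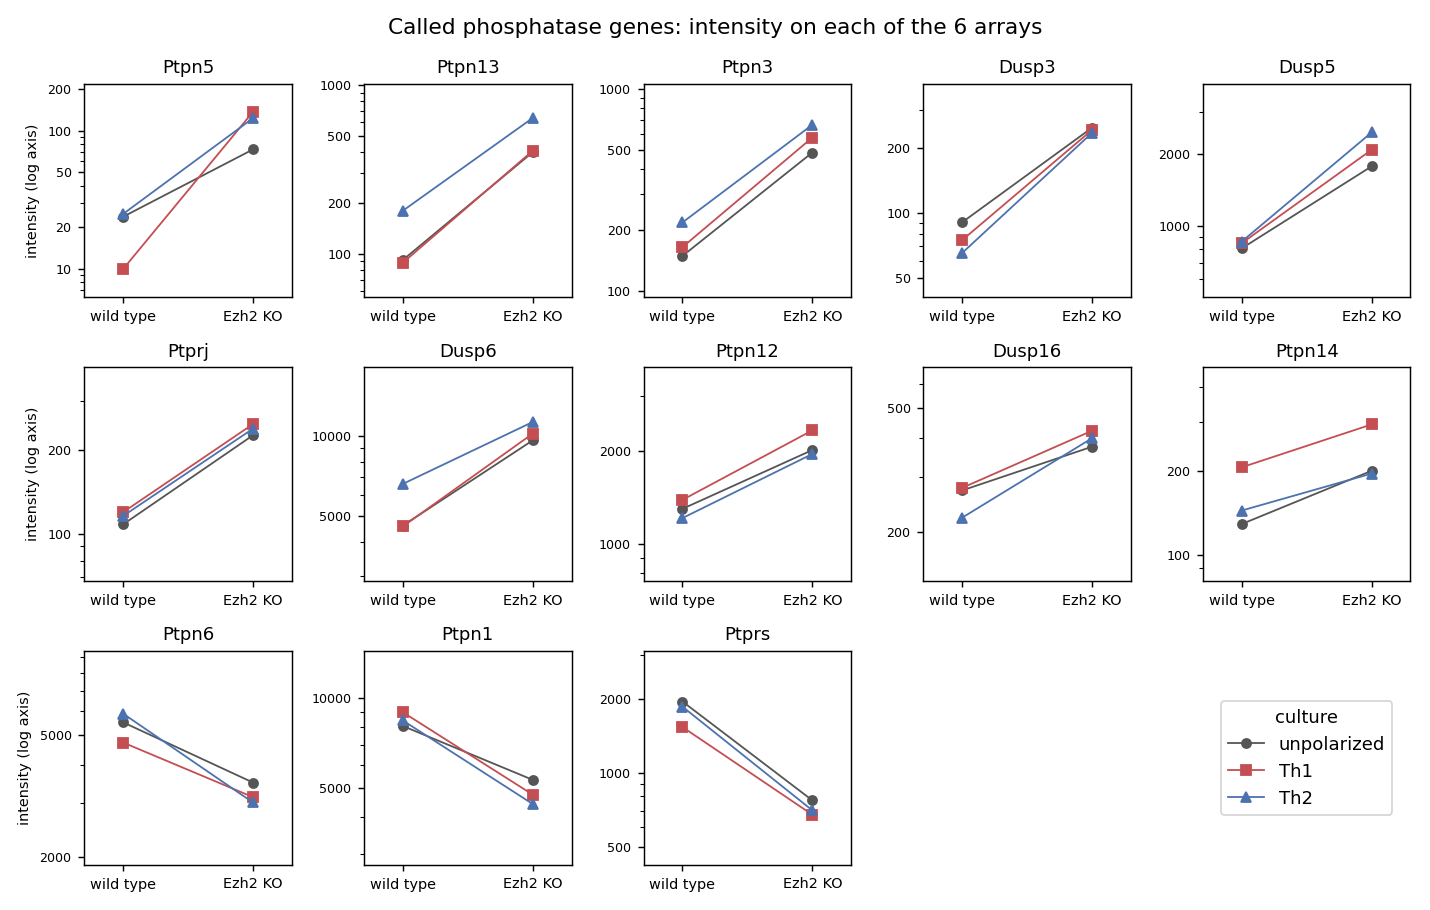
Each panel is 1 of the 13 called genes, with the intensity on a log axis for wild type and Ezh2 KO and a line joining the 2 arrays of each culture. All lines slope one way within a panel, and the Ptpn14 panel shows Th1 readings (206 and 293) above those of the other cultures in both genotypes.

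Of the 10 MAP kinase phosphatases, 8 were tested, and 3 rose, 0 fell and 5 did not pass, where 8.35% and 7.98% of all tested genes rose and fell. The class median was 0.36. Dusp6 encodes the cytoplasmic phosphatase that binds and inactivates ERK, and its mRNA is a common readout of ERK activity. It read 4612, 4579 and 6604 (wild type) against 9603, 10181 and 11254 (Ezh2 KO). Wild type Th2 cells were the brightest of their genotype, yet all Ezh2 KO cultures exceeded them, and the difference was 0.99 ± 0.20, 1.99-fold (limma adjusted p = 0.0287). Dusp5 encodes the nuclear phosphatase that is specific for ERK and is induced by IL-2 in T cells. Its values were 805, 845 and 859 (wild type) against 1771, 2077 and 2454 (Ezh2 KO). The wild type readings lay close together and every Ezh2 KO reading was far above them, at 1.32 ± 0.19 or 2.49-fold (limma adjusted p = 0.0217). Dusp16, which prefers JNK and p38, read 271, 277 and 222 (wild type) against 375, 423 and 399.8 (Ezh2 KO), a smaller rise of 0.64 ± 0.19 or 1.56-fold without overlap (limma adjusted p = 0.0445). Its second probe set, near the limit, gave 0.52 ± 0.60 with both signs, and with the mean of both the call was lost (0.58, limma adjusted p = 0.0578). Dusp5 and Dusp6 have 1 probe set each, so neither has a second measurement here.

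The other 5 tested phosphatases of the class did not pass. Dusp1, an immediate early gene whose product acts on p38 and JNK in the nucleus, read 1967, 2112 and 1800.0 (wild type) against 2588, 2669.7 and 2259 (Ezh2 KO). All Ezh2 KO arrays were above all wild type arrays, by 0.35 ± 0.04, which did not pass (limma adjusted p = 0.0621). Dusp4, a nuclear phosphatase induced by ERK, read 429, 533 and 477 (wild type) against 487, 584 and 825 (Ezh2 KO), where the Ezh2 KO Th2 array was the brightest and the groups overlap (0.37 ± 0.37, limma adjusted p = 0.211). Dusp2, the nuclear enzyme first described in activated T cells, read 1689, 2373 and 1959 (wild type) against 1969, 2199 and 1598 (Ezh2 KO). Its differences had both signs (-0.06 ± 0.26, limma adjusted p = 0.767). Dusp10, which acts on JNK and p38 and limits T cell cytokine output, read 447, 359 and 438 (wild type) against 361, 378 and 477 (Ezh2 KO), again with both signs (-0.04 ± 0.24, limma adjusted p = 0.84). Dusp7, a cytoplasmic ERK phosphatase like Dusp6, gave 0.02 ± 0.42. Its other probe sets gave -0.19 ± 0.24, with both signs, and -0.47 ± 0.27, lower in each culture. The chosen probe sets of Dusp8 and Dusp9 were too dim to test.

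The stretches upstream of Dusp5 and Dusp6, the ERK phosphatases that rose, and of Ptpn1 and Ptpn6, the non-receptor enzymes that fell, are shown to compare the sequence that members moving in opposite directions carry at their starts. Each is the 250 bases before the RefSeq start on assembly GRCm38.p6, 5′ to 3′ on the strand of the gene, with CG dinucleotides in capitals.
Dusp5, chr19:53528895-53529144, plus strand: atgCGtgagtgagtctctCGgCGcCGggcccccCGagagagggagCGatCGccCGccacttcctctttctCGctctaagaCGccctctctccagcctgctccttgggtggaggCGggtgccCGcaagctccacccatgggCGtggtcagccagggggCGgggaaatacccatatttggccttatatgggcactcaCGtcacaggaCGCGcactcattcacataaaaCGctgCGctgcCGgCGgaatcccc
Dusp6, chr10:99262981-99263230, plus strand: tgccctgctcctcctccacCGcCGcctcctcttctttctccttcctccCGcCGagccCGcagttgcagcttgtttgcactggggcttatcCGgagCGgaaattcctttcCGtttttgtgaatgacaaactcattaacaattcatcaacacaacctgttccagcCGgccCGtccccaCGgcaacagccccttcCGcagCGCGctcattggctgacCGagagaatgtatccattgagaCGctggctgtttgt
Ptpn1, chr2:167932077-167932326, plus strand: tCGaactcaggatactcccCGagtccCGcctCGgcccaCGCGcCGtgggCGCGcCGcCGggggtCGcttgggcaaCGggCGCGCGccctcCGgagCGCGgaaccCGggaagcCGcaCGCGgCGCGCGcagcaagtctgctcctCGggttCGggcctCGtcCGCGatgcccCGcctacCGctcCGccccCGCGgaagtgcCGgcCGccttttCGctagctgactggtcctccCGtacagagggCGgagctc
Ptpn6, chr6:124738710-124738959, minus strand: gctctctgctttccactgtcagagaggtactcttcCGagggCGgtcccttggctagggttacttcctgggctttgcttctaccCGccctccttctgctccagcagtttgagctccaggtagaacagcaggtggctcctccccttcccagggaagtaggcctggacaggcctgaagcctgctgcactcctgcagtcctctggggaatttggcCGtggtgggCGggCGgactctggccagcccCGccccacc

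CG dinucleotides, which are dense at the promoters where Polycomb complexes are known to bind, numbered 21 for Dusp5, 16 for Dusp6, 41 for Ptpn1 and 7 for Ptpn6, so the count did not sort by direction in these 4. RefSeq starts were found for 47 of the 58 genes, with 63 windows. The median CG count was 15 per window over these and 6 over all 32841 windows. Those windows belong to 27018 genes, tested or not, so this background differs from the tested genes used elsewhere. The median was 21 over the 11 windows of 9 genes that rose, 15 over the 4 windows of the 3 that fell and 17 over the 29 windows of 21 tested genes that did not pass. Over the 19 windows of 14 phosphatase genes that were not tested it was 12. The CArG box, the element bound by serum response factor, was found by its consensus in 1.47% of all windows and in 3 windows of phosphatase genes (4.76%). A pair of these belongs to Ptprr, which was too dim to test, and the other to Dusp5, whose 250 bases hold a pair of adjacent matches, ccatatttgg beginning 82 bases and ccttatatgg beginning 72 bases before the start. The Ptprr windows hold the same letters, ccatttaagg, beginning 71 and 164 bases before their starts. Whether this is 1 site counted from different starts was not checked, so the 3 windows may hold fewer separate loci. Searches on both strands for TGANTCA (AP-1), TGACGTCA (CRE), CCGGAA (ETS) and TTCNNNGAA (STAT) found matches in 6.75%, 1.55%, 12.0% and 7.02% of all windows and in 3.17%, 6.35%, 9.52% and 7.94% of those of phosphatase genes. Among the genes that rose, Ptpn3 held an ETS match beginning 132 bases and Ptprj a STAT match beginning 90 bases before a start. Dusp1, which did not pass, held a CRE match beginning 143 bases before its start. These matches describe letters and not binding.

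Of the 14 atypical dual-specificity genes 9 were tested, and Dusp3 was the 1 that rose, where 8.35% of all tested genes did. It encodes VHR, a small phosphatase of ERK and JNK, and read 90.3, 74.7 and 65.2 (wild type) against 247, 241 and 234 (Ezh2 KO). The arrays separated fully, at 1.66 ± 0.20 or 3.16-fold (limma adjusted p = 0.02). A second probe set was higher in every culture, at 2.06 ± 0.26, and another, near the limit, gave 0.26 ± 0.37. Dusp14, which restrains T cell receptor signalling through the adaptor TAB1, did not pass. It read 98.1, 132 and 29.2 (wild type) against 298, 359 and 606 (Ezh2 KO), higher in every Ezh2 KO culture, with the wild type Th2 array the lowest of the 6 (2.48 ± 1.65, limma adjusted p = 0.0938). Without the Th2 pair the difference was 1.53. Dusp22, which inactivates Lck, read 497, 774 and 631 (wild type) against 801, 783 and 753 (Ezh2 KO). Its unpolarized wild type array was the lowest, and the difference was 0.32 ± 0.34 (limma adjusted p = 0.239). Dusp12, Dusp11, Dusp19 and Dusp28 gave 0.33 ± 0.15, 0.05 ± 0.07, -0.15 ± 0.22 and -0.45 ± 0.28, none past the threshold. A second bright Dusp11 probe set gave 0.37 ± 0.08 and was higher in each Ezh2 KO culture. Dusp26 read 67.9, 18.7 and 34.7 (wild type) against 10.8, 65.1 and 37.9 (Ezh2 KO), of which 4 were under the limit. Its differences ran from -2.58 in the unpolarized pair, with the Ezh2 KO array under the floor, to 1.80 in the Th1 pair.

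**Figure D3:**
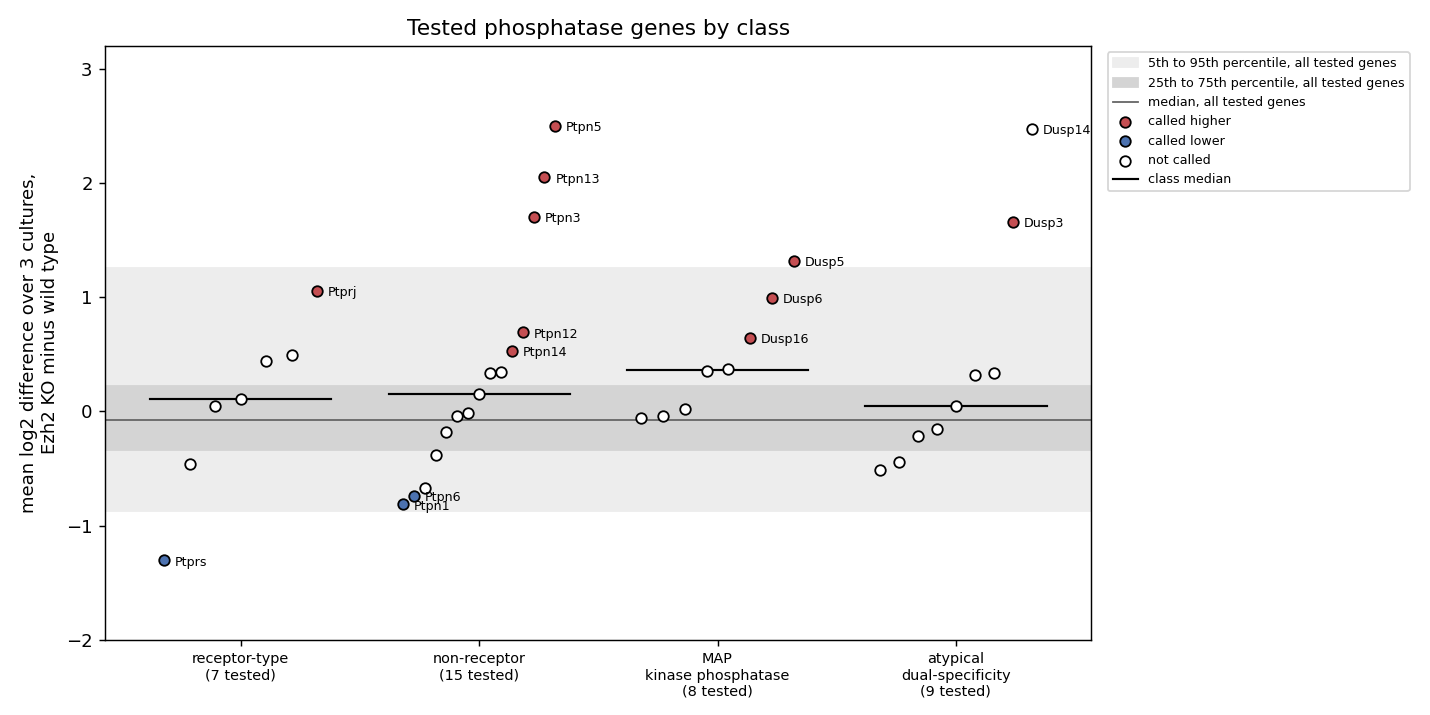
Points are the 39 tested genes by class, placed at the mean log2 difference over the 3 cultures, with grey bands for the spread of all 11572 tested genes (25th to 75th percentile from -0.34 to 0.22). Class medians are 0.11 for receptor-type, 0.15 for non-receptor, 0.36 for MAP kinase and 0.05 for atypical phosphatases, and the position of Ptpn5 (2.50) depends on the floor.

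The size of the genotype difference varied with culture for some members. Among the 13 called genes the largest absolute difference fell in the Th2 pair for 6, in the Th1 pair for 5 and in the unpolarized pair for 2. Over all 1890 called genes the Th2 pair held the largest for 50.5%, the Th1 pair for 23.3% and the unpolarized pair for 26.2%. Dusp5 went from 1.14 in the unpolarized pair to 1.51 in the Th2 pair, Ptpn1 from -0.60 to -0.93 and Ptpn6 from -0.65 to -0.97. Dusp6 ran the other way, from 1.06 to 0.77. So did Ptpn13 (2.12 to 1.83), Ptpn3 (1.70 to 1.61), Ptpn14 (0.63 to 0.44) and, barely, Ptprj (1.07 to 1.04). All other called genes had a larger absolute difference in the Th2 pair than in the unpolarized pair. With 1 array per group these differences between cultures were not tested.

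The second comparison asked whether IL-12 or IL-4 conditions changed the phosphatase genes, with genotype as a block. In limma 0 of the 39 genes passed for Th1 against Th2, Th1 against unpolarized or Th2 against unpolarized, and 0 of all 11572 tested genes did (0%). At an unadjusted limma p under 0.05 there were 5, 1 and 5 of the 39, against 7.59%, 5.46% and 6.7% of all tested genes. The lowest adjusted p of a phosphatase gene was 0.538 (Ptpn13, Th1 against Th2), and the polarization results are given as values. Of the 39 genes 30, 33 and 27 stayed within 0.5 on the log2 scale in both genotypes. Dusp13, a phosphatase of testis and muscle, was the 1 gene at least 2-fold apart the same way in both genotypes. It read 102, 95.5 and 38.2 (wild type) against 75.004, 49.6 and 34.5 (Ezh2 KO), and the Th2 cultures were the lowest in each genotype, under the limit (-1.41 in wild type and -1.12 in Ezh2 KO against unpolarized, limma adjusted p = 0.564). Ptpn13 was higher in Th2 than in unpolarized cultures, by 0.97 in wild type and 0.67 in Ezh2 KO (limma adjusted p = 0.556).

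**Figure D4:**
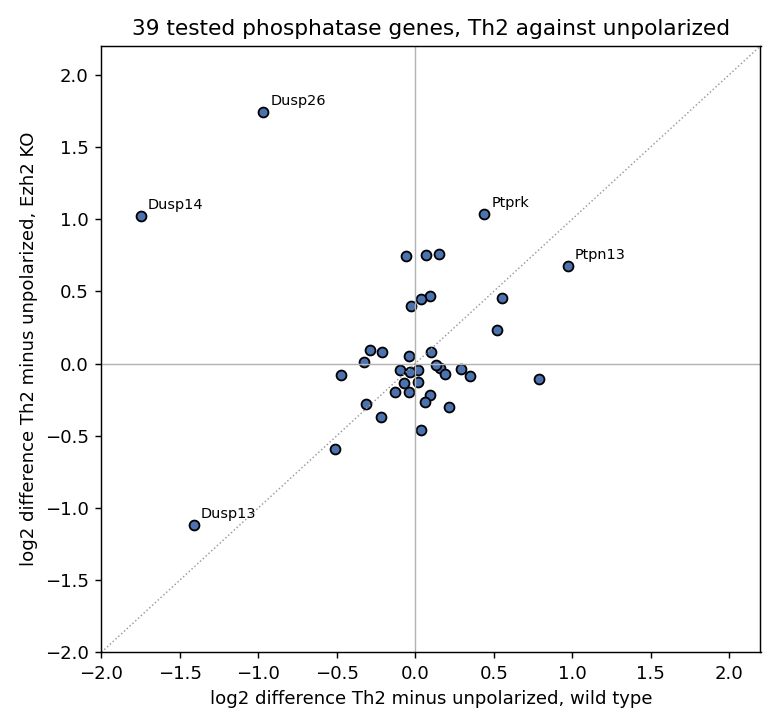
Each point is 1 of the 39 tested genes, with the Th2 minus unpolarized log2 difference in wild type on the horizontal axis and in Ezh2 KO on the vertical axis. Most points lie within 0.5 of 0 on both axes, Dusp13 lies low on both, and Dusp14 and Dusp26 lie below 0 in wild type and above 0 in Ezh2 KO.

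The chosen probe sets of the 19 genes that were not tested were under the limit on all 6 arrays, with readings from 0.559 to 59.8. Of their other probe sets 1 reached the limit, a Dusp9 probe set that read 89.2 on the unpolarized Ezh2 KO array and no more than 17.6 on the other arrays. They are 11 receptors (Ptprb, Ptprd, Ptprf, Ptprg, Ptprm, Ptprn, Ptprn2, Ptpro, Ptprr, Ptpru and Ptprz1), many of them known from neural, epithelial or endothelial cells, the testis gene Ptpn20, the MAP kinase phosphatases Dusp8 and Dusp9, and the atypical Dusp15, Dusp18, Dusp21, Dusp23 and Dusp27. Readings under the limit do not show that a transcript is absent. Across the probe sets not chosen, 11 belonging to called genes reached the limit, and 10 of these had a mean difference of the same sign as the chosen one, 6 of them in each of the 3 cultures.

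Genes that the phosphatases act beside were counted in the same way. Over all tested genes 8.35% rose and 7.98% fell, with a median difference of -0.07. Of 15 tested ERK feedback and target genes 6 rose and 3 fell, with a median of 0.30. The ETS factor Etv5 (2.35 ± 0.88), Fosl2 (1.93 ± 0.36), Ier3 (1.92 ± 0.46), Phlda1 (1.25 ± 0.15), Spred1 (1.195 ± 0.33) and Jun (0.95 ± 0.13) rose. Spry1 (-1.004 ± 0.26), Fos (-0.77 ± 0.18) and Egr3 (-0.61 ± 0.12) fell. Genes of this list moved in both directions, and a link between them and Dusp5 or Dusp6 was not tested. Of 27 proximal T cell receptor signalling genes 4 rose and 1 fell, with a median of 0.20: Ubash3b, which encodes a phosphatase of Zap70 and Syk outside the 58 genes, rose by 1.28 ± 0.04, the adaptor Sla2 by 1.10 ± 0.37, protein kinase C theta (Prkcq) by 1.009 ± 0.09 and the zeta chain Cd247 by 0.47 ± 0.07, and Plcg1 fell, at -0.45 ± 0.09. Of 20 MAP kinases and upstream kinases 1 rose and 2 fell, with a median of 0.01, the rise being Map3k7 (0.75 ± 0.11) and the falls p38 beta (Mapk11, -2.02 ± 0.36) and Map3k1 (-0.50 ± 0.08). The 10 JAK and STAT genes had 0 rises and 1 fall, Stat5a at -0.63 ± 0.15, with a median of 0.00127. Of 26 other tyrosine or dual-specificity phosphatases outside the 58 genes, 1 rose and 1 fell, Cdc14b (0.92 ± 0.20) and the lipid phosphatase Mtm1 (-0.76 ± 0.15), with a median of -0.08.

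Markers of other cell types were read beside these results, because Ptpn6, Ptprj and Ptpre are also known from myeloid and B cells. Of 8 myeloid and dendritic markers 4 were tested and 1 rose, Mpeg1, and their summed intensity was 2387 to 2877 in wild type and 2843 to 4465 in Ezh2 KO, most of it from Cst3. Mpeg1 read 8.41, 11.02 and 6.82 (wild type) against 49.0, 141 and 98.2 (Ezh2 KO), so it reached the limit in 1 genotype alone and had to differ. Lyz2, Itgam, Cd14 and Itgax were under the limit on all arrays. Of 5 B cell markers with a probe set 2 were tested and Ms4a1 rose by 2.46 ± 1.05, with sums of 125 to 312 and 349 to 962, while Cd79a, Pax5 and Cr2 were under the limit. Of 3 NK cell markers Klrk1 was tested and rose by 2.14 ± 0.92, with sums of 89.9 to 193 and 147 to 406, while Ncr1 and Tyrobp were under the limit. The 2 CD8 markers summed to 389 to 414 and 374 to 540 and did not pass, erythroid markers were under the limit, and of 4 fibroblast markers only Col1a2 was tested (-0.11 ± 1.36). The part of other cells in the phosphatase differences was not tested.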

How the data were processed

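Total RNA from 6 cultures of mouse CD4 T cells was hybridized to Affymetrix 3' expression arrays, 1 per sample, per the labels' protocols. The authors deposited linear intensities. Affymetrix Expression Console, with no version, is named per the submitters' processing notes, with no summarization method. The trimmed mean is the same on each array while the medians differ (61.3 to 69.1). The number of arrays limits precision, and dim genes are limited by signal over background.

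The file holds 45101 probe sets, 64 of them controls. The platform annotation gave 1 symbol for 34945, several for 932 and none for 9160. The probe set with the highest mean log2 value, after the floor, stood for each gene, and leaving out the floor changed the choice for 2 dim members (Dusp9 and Ptprg). An additive model of genotype and culture was fitted to the 6 arrays with limma 3.58.1 in R 4.3.3 (2 residual degrees of freedom, prior 1.66), with a threshold of 0.05. The members, lists and alternatives were chosen with earlier results of these data known. Genes named in full were 13 known in T cell signalling (Ptpn7 had no probe set in use), all called members, members at least 2-fold apart between cultures in both genotypes, and members at least 4-fold apart between genotypes in 1 culture; the rest are given by value, and those described beyond this rule were chosen after their values were seen. Alternatives were median centring, quantile normalization, other filters, floors and probe set rules, an intensity trend, and leaving out each culture pair.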

Additional observations from a re-analysis of the deposited data

Results flagged for a closer look

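Of the 39 tested genes, 12 had genotype differences of opposite sign in different cultures, and with 1 array per group the difference between cultures was not tested. The distance between the highest and lowest culture was 4.38 on the log2 scale for Dusp26, 0.957 for Ptprk, 0.899 for Ptprv, 0.803 for Dusp7, 0.515 for Dusp2, 0.431 for Dusp10, 0.418 for Dusp19, 0.401 for Ptpn23, 0.21 for Ptpn11, 0.144 for Dusp11, 0.142 for Ptpn18 and 0.0978 for Ptprc. None of the 12 passed the genotype test.

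A culture difference of at least 0.5 that pointed opposite ways in the genotypes was seen for 3 genes, also without a test. For Dusp14, Th1 minus Th2 was 2.18 in wild type and -0.75 in Ezh2 KO (a change of -2.93), and Th2 minus unpolarized was -1.75 and 1.02 (a change of 2.77). Both rest on the low wild type Th2 array, which read 29.2. For Dusp26 the changes from wild type to Ezh2 KO were 1.67 for Th1 minus Th2, 4.38 for Th1 minus unpolarized and 2.71 for Th2 minus unpolarized, among readings of which 4 of 6 were under the limit. For Ptpn5, Th1 minus unpolarized was -1.07 in wild type, from readings under the limit, and 0.90 in Ezh2 KO, a change of 1.97.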

How the results depend on the processing

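The counts of 10 higher and 3 lower genes became 0 and 0 without a filter on low values (4711 genes at an unadjusted limma p under 0.05), and 0 to 0 for each with 1 culture pair left out, where 1 residual degree of freedom remained. The lower count was 1 with median centring, 6 when the filter was the 60th percentile of mean signal and 5 with an intensity trend in the moderation, where the higher count was 9, 14 and 15 and the share called over all genes 11%, 36.3% and 34.4%, against 16.3%. With the mean of all probe sets the counts were 7 and 2 of 35 tested members, and 14.5% of all tested genes were called (786 higher and 754 lower). Ptpre was called in this setting, Ptpn5 and Ptprj were not tested, and Dusp16, Ptpn14 and Ptprs lost their calls. Polarization counts stayed at 0 under each alternative that allowed a fit, and with 1 genotype left out no test was possible. Among 281 recomputed differences of named genes, 208 kept their sign and side of the threshold, 59 lost the call and 7 gained it. The gains were Ptpn2, Dusp1 and Dusp14 with the 60th percentile filter, and these genes and Ptpn22 with the intensity trend. The 7 that changed sign were uncalled differences near 0 or near the limit. With median centring Ptpn11 gave 0.00582 and Dusp10 0.00794. Ptpn11 gave 0.0238 with the mean of all probe sets. With 1 culture pair left out at a time, Ptpn11 ran from -0.102 to 0.00243, Dusp10 from -0.119 to 0.0971, Dusp26 from -1.23 to 0.965 and Dusp2 from -0.202 to 0.0558. The cause was not tested. No paired analysis by replicate number was possible because the labels carry none; culture was the block of the genotype comparison and genotype that of the culture comparisons.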
